A study of Rattus rattus with 18 samples.

Results

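The comparison of remote limb postconditioning (PostC) with sham operation in the core covered 6 of 18 microRNA arrays, the 3 labelled as core of PostC rats and the 3 labelled as core of sham-operated rats, with 761 rat miRNA probes each. The arrays were taken by their sample titles alone. Of the 761 probes, the 532 detected on at least 3 of the 18 arrays were tested. The animals were 9 Sprague-Dawley rats, with 1 core and 1 peri array from each rat. Only male rats are named in the methods. The third group had transient occlusion of the middle cerebral artery (tMCAO) by a filament. Remote limb postconditioning applies short periods of blocked and restored blood flow to a limb after an injury elsewhere in the body. The deposited description sets PostC and tMCAO side by side without saying whether the PostC rats also had the artery occluded, so the agent that separates PostC from sham is known only by its label. The labels give the core tissue as temporo-parietal cortex and the peri tissue as striatum, and the methods give them the other way round. The region is therefore called core here. The time of sacrifice was not tied to the arrays by any source used here. The tissue was bulk, so fewer cells of a type and less RNA per cell cannot be told apart.

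MiRNAs are short RNAs that are cut from hairpin precursors and guide Argonaute proteins to messenger RNAs. Pairing runs mainly through the seed, the bases next to the first one at the 5′ end, and members of a family share it. Brain tissue holds miRNAs typical of neurons, oligodendrocytes, vessels and blood cells, and injured brain is known to gain those of activated microglia and invading leukocytes.

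The targets shown first are those of the 5 miRNAs higher in PostC and the 5 lower in PostC that the values below turn on. They were read from the target column of the array files, 5′ to 3′, and capitals mark the seed, bases 2 to 8. The pair with the smallest p among the higher miRNAs is rich in G, and the lower ones include both members of the miR-101 seed group, which differ from each other by 1 base.
miR-149-3p: gGGACGGGggcggugcug
miR-762: gCGGGGCUagggccggga
miR-21-5p: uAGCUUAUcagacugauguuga
miR-6215: uUUAGGGUugcagagccagg
miR-210-5p: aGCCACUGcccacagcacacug
miR-19b-3p: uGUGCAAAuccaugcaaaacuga
miR-101a-3p: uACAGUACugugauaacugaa
miR-101b-3p: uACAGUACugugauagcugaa
miR-30e-5p: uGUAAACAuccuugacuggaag
miR-29b-3p: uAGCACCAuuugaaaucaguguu

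The arrays differed in ways the groups do not explain. Against the limit set by the empty spots of each array, PostC rats 1, 2 and 3 had 198, 240 and 605 miRNAs detected and sham rats 336, 480 and 509. The means, 348 ± 224 (SD, n = 3) and 442 ± 92.7 (SD, n = 3), differed by less than the spread within PostC (exact permutation test, two-sided, p = 0.6, where 0.1 is the smallest p that 3 against 3 allows). The array of PostC rat 3 had a Pearson correlation of 0.831 and 0.869 with the other PostC core arrays, across miRNAs. Sham rat 2 had 0.890 and 0.899 with the other sham core arrays, which had 0.985 with each other. A mismatch control for the spiked-in RNA read 27865 units on sham rat 2 and 34.9 to 281 on the other 5 arrays. PostC rat 2 lay closer to sham rats 1 and 3 (0.945 and 0.949) than to either PostC array (0.926 and 0.869). The values below are therefore given for each rat.

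No miRNA passed the adjusted threshold between PostC and sham in core. Of 532 miRNAs tested, 0 (0%) had an adjusted p under 0.05 in limma, and 90 (16.9%) had an unadjusted p under 0.05. Of these 90, 44 (8.27%) were higher and 46 (8.65%) lower in PostC. With median scaling the split was 19 higher and 51 lower, and with plain background subtraction 41 and 25. The smallest adjusted p in limma, 0.0568, was shared by 4 miRNAs, miR-149-3p and miR-762 among the higher and miR-19b-3p and miR-200b-5p among the lower. At an adjusted p under 0.10 there were 14 (2.63%), of which 6 (1.13%) were higher and 8 (1.5%) lower. The methods' t-test gave 0 after adjustment and 50 before it. The number with adjusted p under 0.05 ran from 0 to 8 when single rats were left out, with 8 without PostC rat 2, 2 without sham rat 3 and 1 without sham rat 2. The 8 were miR-149-3p, miR-762, miR-6215, miR-3473, miR-182, miR-208a-5p, miR-19b-3p and miR-101b-3p, the 2 were miR-21-5p and miR-200b-5p, and the 1 was miR-149-3p.

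In 117 miRNAs (22%) the 3 PostC and the 3 sham values did not overlap, 58 (10.9%) higher and 59 (11.1%) lower. A log2 difference above 1 was measured for 36 miRNAs, 25 of them without overlap, and one below -1 for 47, 31 without overlap. The median log2 difference was 0.06, with quartiles at -0.37 and 0.48. The 95% interval of the difference lay wholly within 1 log2 unit of 0 for 165 miRNAs (31.0%). The standard deviation was larger in PostC than in sham for 364 of 532 miRNAs, with medians of 0.51 and 0.34 log2 units. Of the 44 higher miRNAs with an unadjusted p under 0.05, 30 were detected on all 6 arrays, and of the 46 lower ones 8 were, against 183 of all 532 tested. With this limit 183 miRNAs were detected on all 3 PostC arrays and 335 on all 3 sham arrays, and the limit itself was 179, 566 and 83.0 units on the PostC arrays and 161, 58.5 and 49.1 on the sham arrays. A lower level in PostC can also take a miRNA out of this count.

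**Figure D1:**
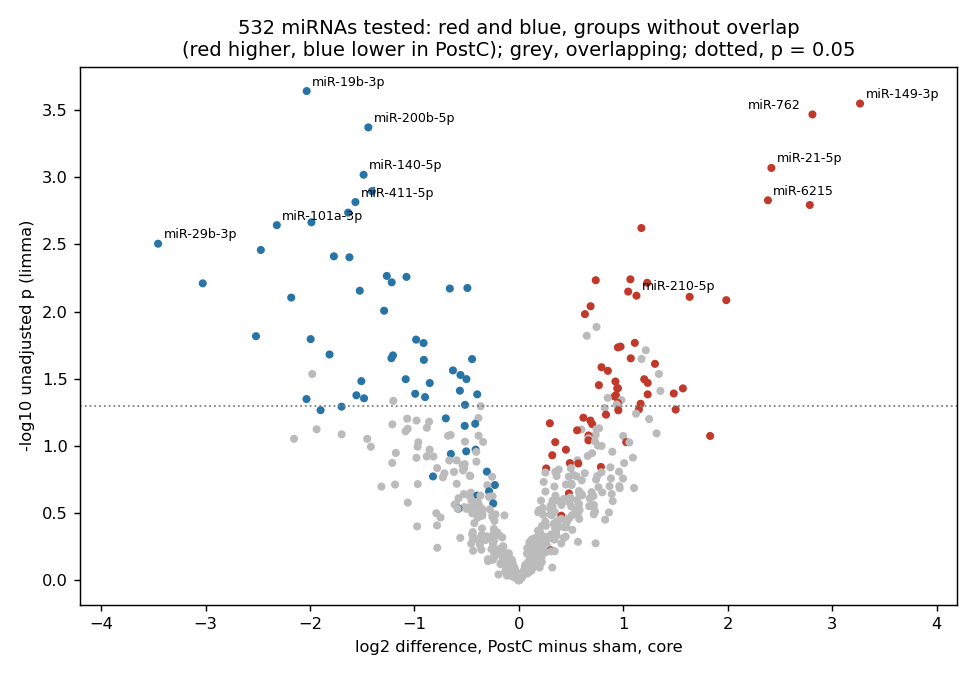
Log2 difference PostC minus sham in core (x axis) against the -log10 unadjusted p of limma (y axis) for 532 miRNAs, coloured by whether the 3 PostC and 3 sham values overlap. The points above the dotted line number 44 on the right and 46 on the left, and miR-149-3p, miR-762 and miR-21-5p lie far right while miR-29b-3p has a difference of -3.46.

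The miRNAs higher in PostC were led by 2 G-rich targets and by miR-21-5p. Those named by rank of p were chosen for a small p, so groups without overlap are no added support for them. MiR-149-3p, the 3′ arm of the miR-149 hairpin, had normalized log2 intensities of 12.90, 11.36 and 13.01 in PostC rats 1, 2 and 3 and 8.46, 10.44 and 8.57 in sham rats. PostC rat 2 and sham rat 2 came closest to each other, and the groups did not overlap. The log2 difference was 3.27 (SE 0.60, 9.63-fold, limma adjusted p = 0.0568), and it was 3.91 without sham rat 2 (limma adjusted p = 0.0179, within 0.0151 to 0.438 over the alternatives). MiR-762 read 11.53, 10.85 and 12.36 in PostC and 8.34, 9.26 and 8.71 in sham, a log2 difference of 2.81 (SE 0.53, limma adjusted p = 0.0568). All 3 PostC arrays lay above all 3 sham arrays, here too with rat 2 lowest in PostC and highest in sham.

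MiR-21-5p, which is induced in injured and inflamed tissue, had log2 intensities of 14.39, 13.09 and 13.11 in PostC and 10.62, 10.58 and 12.13 in sham. The log2 difference was 2.42 (SE 0.52, limma adjusted p = 0.0851). In the deposited normalized intensities the same arrays read 14965, 9729 and 9632 units in PostC and 1486, 1409 and 4448 in sham. Sham rat 3 was the highest sham array and remained below every PostC array on both scales. In the alternatives miR-21-5p had an adjusted p under 0.05 in 3 of 24.

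MiR-6215 read 14.93, 12.76 and 14.54 in PostC and 11.16, 12.66 and 11.26 in sham (log2 difference 2.39, SE 0.55, limma adjusted p = 0.0857). Here PostC rat 2 and sham rat 2 lay close together, and the other arrays stood far apart. MiR-3473 had the same arrangement in PostC, at 13.25, 10.73 and 13.11, against 10.36, 10.22 and 10.55 in sham. It was named for that arrangement after its values were seen. Its log2 difference was 1.99 (SE 0.61, limma adjusted p = 0.133).

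Of the miRNAs named by rank of p, 3 come from the imprinted Dlk1-Dio3 region, whose other miRNAs were not counted as a list. MiR-434-3p read 13.23, 12.49 and 13.13 in PostC and 11.56, 11.57 and 12.20 in sham (log2 difference 1.17, SE 0.29, limma adjusted p = 0.0909). MiR-329-3p read 12.80, 11.93 and 12.06 against 10.84, 11.17 and 11.08 (1.23, SE 0.36, limma adjusted p = 0.13). The groups did not overlap for either. MiR-411-5p of the same region went the other way, at 8.90, 9.85 and 9.45 in PostC and 11.07, 10.93 and 10.90 in sham (-1.57, SE 0.36, limma adjusted p = 0.0857).

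MiR-150-5p, typical of mature lymphocytes, read 12.35, 12.13 and 12.66 in PostC and 11.30, 11.03 and 11.61 in sham, a log2 difference of 1.07 (SE 0.31, limma adjusted p = 0.13). MiR-191a-5p, which many tissues express, read 13.57, 13.08 and 13.41 against 12.51, 12.50 and 12.84. Its log2 difference of 0.74 (SE 0.21, limma adjusted p = 0.13) was the smallest among the 16 miRNAs named by rank of p. The groups did not overlap for either miRNA.

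**Figure D2:**
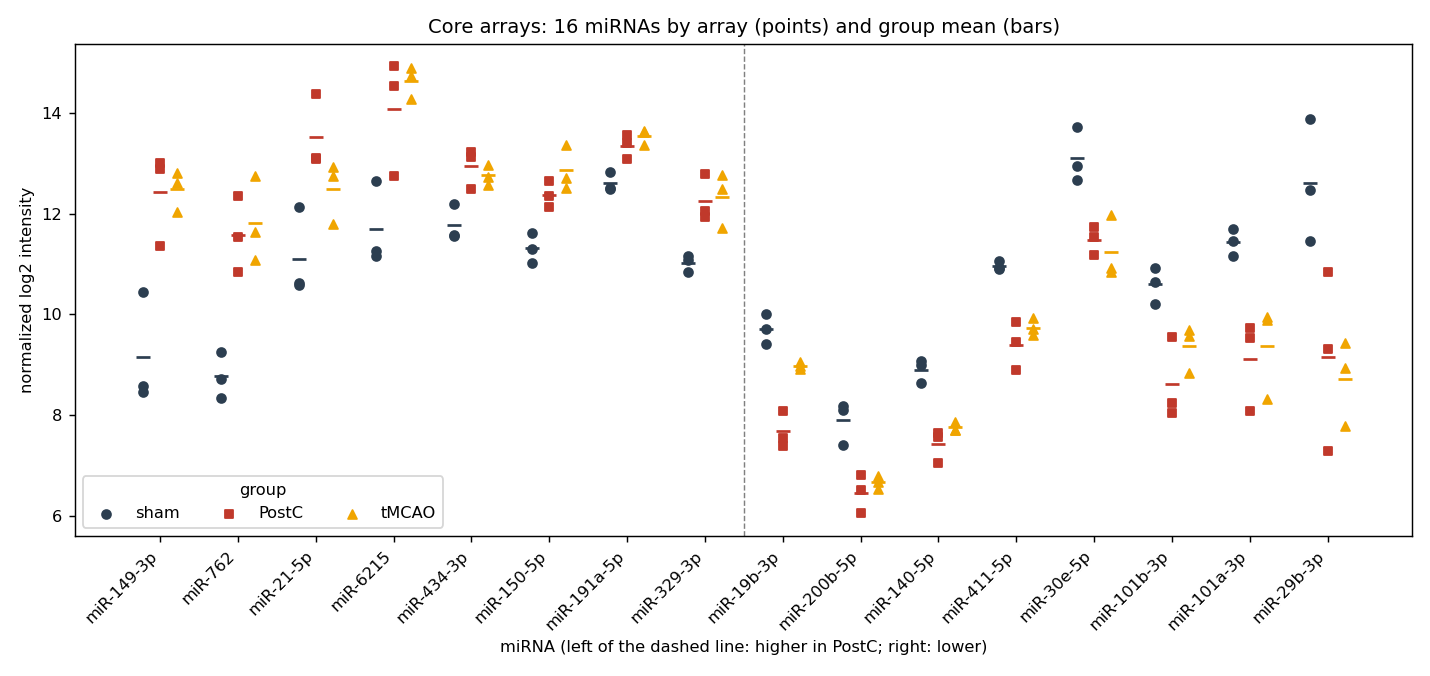
Normalized log2 intensity (y axis) of the 8 higher and 8 lower miRNAs with the smallest p (x axis) on each core array, with points for rats and bars for group means of sham, PostC and tMCAO (n = 3 each). For all 16, which were chosen by p, the PostC and sham points do not overlap (22% of all tested). Sham rat 2 is the highest sham point for miR-149-3p at 10.44 and for miR-29b-3p at 13.88.

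Among the lower miRNAs, miR-19b-3p, a member of the miR-17-92 cluster, had the smallest unadjusted p of the 532. It read 7.39, 8.09 and 7.55 in PostC and 9.71, 9.41 and 10 in sham, a log2 difference of -2.03 (SE 0.37, limma adjusted p = 0.0568). It was above the detection limit on 1 of 3 PostC arrays and on 3 of 3 sham arrays, and its target is 1 base from that of miR-19a-3p. MiR-200b-5p, the lesser arm of the hairpin that gives the epithelial miR-200b-3p, read 6.81, 6.05 and 6.52 against 8.18, 8.11 and 7.41, and was also detected on 1 PostC array (-1.44, SE 0.28, limma adjusted p = 0.0568). The PostC values of both miRNAs lay close to background, so the sizes of these differences are uncertain. Both entered the ranking by p through their detection in sham, as did miR-140-5p, miR-101a-3p, miR-101b-3p and miR-29b-3p below.

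MiR-140-5p, best known from cartilage, read 7.57, 7.64 and 7.04 in PostC and 8.99, 9.07 and 8.64 in sham, with detection on 1 PostC array. Its log2 difference was -1.49 (SE 0.32, limma adjusted p = 0.0851), of uncertain size for the same reason. The miR-101 pair, which represses the histone methyltransferase Ezh2, was lower in both members. MiR-101a-3p read 8.08, 9.74 and 9.54 in PostC and 11.16, 11.70 and 11.45 in sham, with detection on 2 PostC arrays (-2.32, SE 0.57, limma adjusted p = 0.0909). MiR-101b-3p read 8.25, 9.55 and 8.04 against 10.65, 10.93 and 10.21, also with detection on 2 PostC arrays (-1.99, SE 0.49, limma adjusted p = 0.0909). With 1 base between their targets, the probes may read each other's miRNA and are not independent.

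MiR-30e-5p was bright on all 6 arrays, at 11.19, 11.74 and 11.53 in PostC and 12.95, 13.72 and 12.68 in sham. Its log2 difference was -1.64 (SE 0.39, 3.11-fold lower, limma adjusted p = 0.0888). In the deposited intensities it read 2239, 3554 and 2815 units in PostC and 8262, 12329 and 6943 in sham. Every PostC array lay below every sham array on both scales.

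MiR-29b-3p, whose family represses collagens and DNA methyltransferases and accumulates as neurons mature, was detected on 2 of 3 PostC arrays and on 3 of 3 sham arrays. Its log2 intensities were 7.29, 9.31 and 10.85 in PostC and 11.46, 13.88 and 12.47 in sham, a log2 difference of -3.46 (SE 0.90, limma adjusted p = 0.111) that ran from -4.31 without PostC rat 3 to -2.52 without PostC rat 1. The spread within each group was wide, and PostC rat 3 came close to sham rat 1 without reaching it. The other 2 of the 14 miRNAs with an adjusted p under 0.10 were miR-208a-5p, higher, and miR-34b-5p, lower. Neither was detected on all 3 arrays of a group, with 2 PostC and 1 sham array for miR-208a-5p and 1 PostC and 2 sham arrays for miR-34b-5p.

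MiRNAs of leukocytes and microglia lay higher in PostC in 5 of the 6 tested, against 54.5% of all tested. Their median difference from sham in tMCAO was 1.37. Of the 7 in the list, 6 were tested, and 3 had an unadjusted p under 0.05, all higher (8.27% of all tested were higher at that p). The median log2 difference of the 6 was 0.97 against 0.06 over all tested, but it falls between miR-223-3p and miR-155-5p, which were not well above background on most arrays. Only miR-21-5p, miR-150-5p and miR-146a-5p were detected on all 6 arrays. None had an adjusted p under 0.05. The 3 were miR-21-5p and miR-150-5p, given above, and miR-155-5p, which activated macrophages and lymphocytes make. MiR-155-5p read 6.75, 7.14 and 7.99 in PostC and 6.39, 6.18 and 6.17 in sham. It was detected on 1 PostC and on 0 sham arrays, so most of these values are not well above background and no fold is given (limma adjusted p = 0.13 for the measured values). MiR-146a-5p, a brake on NF-kB signalling, read 9.68, 10.07 and 9.40 against 9.07, 9.26 and 9.11 without overlap (0.57, limma adjusted p = 0.427). MiR-223-3p of neutrophils was detected on 1 array of each group, so no size is given for it either. MiR-142-5p, found in all blood cell lineages, had a log2 difference of -0.12. The summed deposited intensity of the list was 15565 to 20017 units in PostC and 4138 to 8247 in sham, of which miR-21-5p made up 9632 to 14965 units in PostC and 1409 to 4448 in sham.

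In the 2 red blood cell miRNAs tested, markers of blood left in the tissue, the differences had opposite signs. Only miR-451-5p was detected on all 6 arrays. MiR-451-5p, which red cell precursors make in large amounts, read 10.09, 10.45 and 10.32 in PostC and 11.11, 12 and 11.41 in sham, with a log2 difference of -1.22 (SE 0.35, limma adjusted p = 0.13). MiR-486, which red cells and muscle hold, had 1.00 with overlap, and miR-144-3p did not reach the limit for testing. The summed deposited intensity of the 3 was 1313 to 1468 units in PostC and 2249 to 3899 in sham. The part of blood in the differences of the leukocyte list was not tested.

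All 10 neuron-enriched miRNAs were detected on all 6 arrays, so the markers of the labelled tissue were present. Their median log2 difference was -0.48, and 8 were lower and 2 higher, where 45.5% of all tested were lower. In 1 lower member the unadjusted p was under 0.05 (8.65% of all tested). MiR-124-3p, the most abundant neuronal miRNA of the brain, had a log2 difference of -0.07. MiR-153-3p read 9.30, 11.92 and 9.07 in PostC and 13.24, 12.58 and 12.03 in sham without overlap (-2.52, limma adjusted p = 0.208). MiR-137-3p had -1.90, and miR-129-2-3p had 0.49. The summed deposited intensity was 91868 to 107888 units in PostC and 115848 to 118012 in sham.

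Of the 5 activity-regulated miRNAs, which neurons make on stimulation, 1 had an unadjusted p under 0.05, miR-132-5p (8.65% of all tested were lower at that p). It read 7.52, 8.10 and 10.04 in PostC and 10.76, 11.94 and 10.37 in sham (-2.47, SE 0.65, limma adjusted p = 0.116), with detection on 1 PostC array. The main arm of the same hairpin, miR-132-3p, had 0.13. The other members were miR-212-3p at -0.35, miR-212-5p at -0.46 and miR-134-5p at 0.51, all with overlapping groups. The sign of miR-134-5p turned when a single rat was left out.

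The 4 oligodendrocyte miRNAs, which drive the maturation of myelin-forming cells, differed by arm and by detection. MiR-338-3p read 7.35, 8.21 and 10.24 in PostC and 10.70, 13.33 and 10.85 in sham, a log2 difference of -3.03 (SE 0.88, limma adjusted p = 0.13). MiR-219a-5p read 7.13, 6.76 and 7.77 against 8.08, 11.14 and 8.42 (-1.99, SE 0.69, limma adjusted p = 0.21). In both, sham rat 2 stood far above the other sham arrays, and the groups did not overlap without it either. Without that array the log2 difference of miR-338-3p was -2.18 and that of miR-219a-5p was -1.03. The opposite arms, miR-338-5p and miR-219a-2-3p, had 0.14 and -0.22 with overlapping groups and signs that turned in some alternatives. These arms were detected on all 6 arrays, whereas miR-338-3p was detected on 2 and miR-219a-5p on 1 of the 3 PostC arrays, each on 3 of 3 sham arrays. The median of the list was -1.10, and -0.68 without PostC rat 3 and sham rat 2.

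Blood vessel miRNAs had a median of -0.48 over 4 tested, and -0.30 without PostC rat 3 and sham rat 2. MiR-126a-3p of endothelium read 12.01, 12.80 and 12.80 in PostC and 13.30, 13.86 and 13.01 in sham (-0.85, limma adjusted p = 0.27), while miR-145-5p of smooth muscle had 0.56 with overlap. In the striated muscle list, 5 of 7 were tested and none had an unadjusted p under 0.05. Their median was 0.50, but 0.28 with quantile normalization, 0.26 with median scaling, 0.04 in the deposited intensities and 0.11 without PostC rat 3 and sham rat 2. These myogenic miRNAs were near the detection limit, with summed deposited intensities of 743 to 1595 units in PostC and 609 to 1245 in sham.

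MiR-210 is the miRNA best known to be induced by hypoxia. Its 5′ arm, miR-210-5p, read 13.14, 12.01 and 12.47 in PostC and 11.45, 11.39 and 11.41 in sham, without overlap and with hardly any spread among the sham rats. The log2 difference was 1.13 (SE 0.34, 2.18-fold, limma adjusted p = 0.131). The 3′ arm, miR-210-3p, which is the main product of the hairpin, had 0.72 (SE 0.62, limma adjusted p = 0.567) and was detected on 2 PostC and 3 sham arrays.

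**Figure D3:**
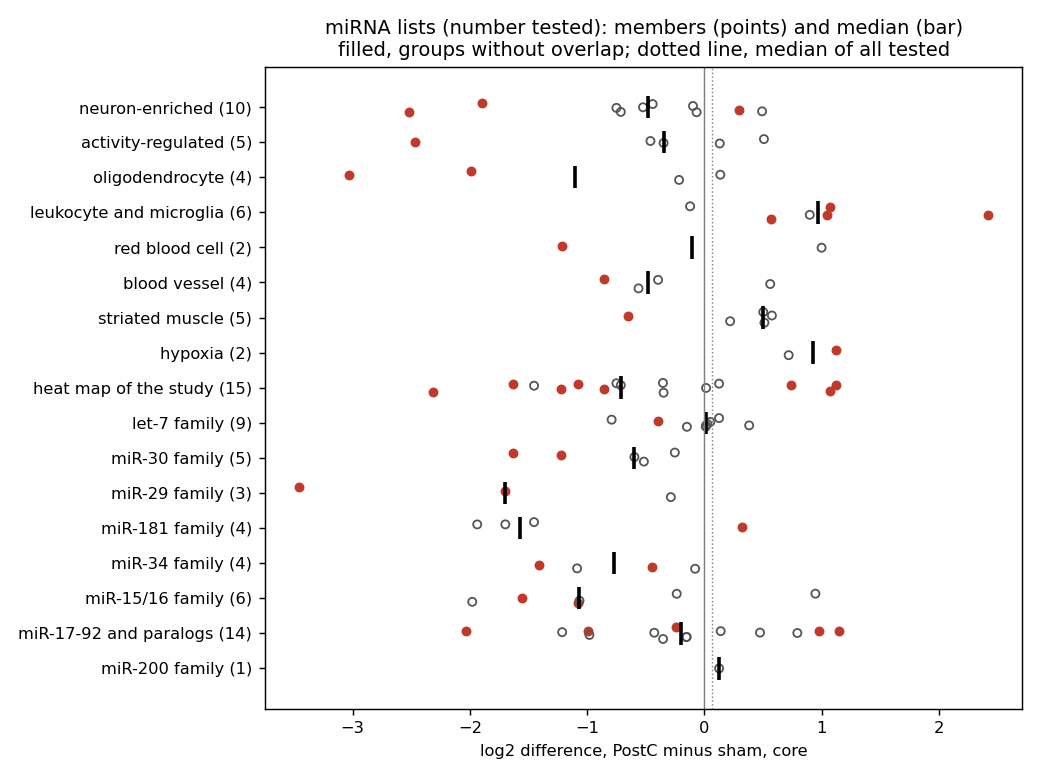
Log2 difference PostC minus sham in core (x axis) of the tested members of 17 miRNA lists (y axis, number tested in parentheses), with a bar at each median and filled points where the groups do not overlap. In the leukocyte and microglia list miR-21-5p lies at 2.42, the miR-29 family median is -1.70, and the dotted line for all tested miRNAs is at 0.06. Some members, such as miR-155-5p and miR-223-3p, were near background on most arrays.

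Families that share a seed differed in how evenly their members lay. All 5 miR-30 members tested were lower (median -0.60), against 45.5% of all tested. MiR-30e-5p at -1.64 and miR-30a-5p at -1.22 had an unadjusted p under 0.05 (8.65% of all tested), and miR-30c-5p had -0.25. The median of the 5 was -0.32 without PostC rat 3 and sham rat 2. MiR-384-5p, which shares the seed and was tested, is not in this list. All 3 miR-29 members were lower (median -1.70), against 45.5% of all tested. They ran from -3.46 for miR-29b-3p through -1.70 for miR-29c-3p to -0.29 for miR-29a-3p, whose groups overlapped. The targets of miR-29a-3p and miR-29c-3p are 1 base apart, as are those of miR-30a-5p and miR-30e-5p, so these probes may share signal.

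The miR-15/16 family, known for its restraint of the cell cycle, had 5 of 6 tested members lower (median -1.07), against 45.5% of all tested. Of these, 3 had an unadjusted p under 0.05 (8.65% of all tested). MiR-16-5p read 11.55, 12.68 and 12.41 in PostC and 13.27, 13.23 and 13.36 in sham (-1.08, SE 0.31, limma adjusted p = 0.13), without overlap. MiR-15b-5p had 0.95 in the other direction, with overlapping groups. The 4 tested members of the miR-34 and miR-449 seed family were all lower, as were 45.5% of all tested, and 2 of them had an unadjusted p under 0.05 (8.65% of all tested). Their median was -0.77, and -0.30 without PostC rat 3 and sham rat 2. Only miR-34a-5p was detected on all 6 arrays, with a difference of -0.08, a sign that turned when single rats were left out.

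The let-7 family, abundant in mature tissue, had the median nearest to 0 of the 17 lists. Its 9 members had a median of 0.01, whose sign turned to -0.09 with quantile normalization, -0.05 with median scaling and -0.08 in the deposited intensities. They ranged from -0.79 for miR-98-5p to 0.38 for let-7a-5p, and none had an unadjusted p under 0.05. The sign of let-7a-5p turned in the deposited intensities (-0.30) and when single rats were left out. In the miR-181 family, 3 of 4 members had log2 differences between -1.94 and -1.45 with overlapping groups, and miR-181a-5p had 0.32 without overlap. The sign of miR-181a-5p turned to -0.090 with plain background subtraction. The 25 members of the miR-17-92 cluster and its paralogs gave 14 tested with a median of -0.20, from -2.03 for miR-19b-3p to 1.15 for miR-25-3p. In the miR-200 family, which marks epithelium, 1 of 5 members was tested, miR-200b-3p, with 0.13, detection on 1 of the 6 arrays and a sign that turned with median scaling and without PostC rat 3 and sham rat 2.

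A heat map in the publication shows 15 miRNAs picked on arrays of this series, so their direction is not independent evidence. Of these, 5 were higher and 10 lower in PostC than in sham, where 45.5% of all tested were lower. Their median was -0.71, or -0.40 with quantile normalization and -0.46 after the GC correction. An unadjusted p under 0.05 was found for 8, 3 higher (8.27% of all tested) and 5 lower (8.65%). The 3 higher were miR-210-5p, miR-150-5p and miR-191a-5p. The 5 lower were miR-101a-3p, miR-30e-5p, miR-30a-5p, miR-16-5p and miR-126a-3p. Let-7b-5p and let-7c-5p had 0.13 and 0.01.

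Both arms of a hairpin were tested for 156 hairpins. The arms had differences of the same sign in 88 and of opposite signs in 68. An unadjusted p under 0.05 in both arms was found for 2 hairpins, in opposite directions for 1 of them.

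The differences went with the base composition of the target. Over the 532 miRNAs the Spearman correlation of the log2 difference with the percentage of G and C was 0.327, as a description across miRNAs of the same 6 arrays, and -0.051 for the peri arrays. By single base it was 0.317 for C, -0.006 for G, -0.108 for A and -0.227 for U. The median G and C content was 52.4% in the 44 higher miRNAs, 41.9% in the 46 lower ones and 50% in all. Of 99 miRNAs with at most 40% G and C, 67 (67.7%) were lower, against 45.5% of all tested. Only miR-149-3p and miR-762 had 80% or more. With the linear trend on G and C removed from each array, the difference of miR-149-3p was 2.57, that of miR-762 was 2.11 and that of miR-21-5p was 2.67, whose target has 36.4% G and C. Without PostC rat 3 and sham rat 2 the correlation was 0.253. The part of base composition in the single differences was not tested beyond this correction.

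**Figure D4:**
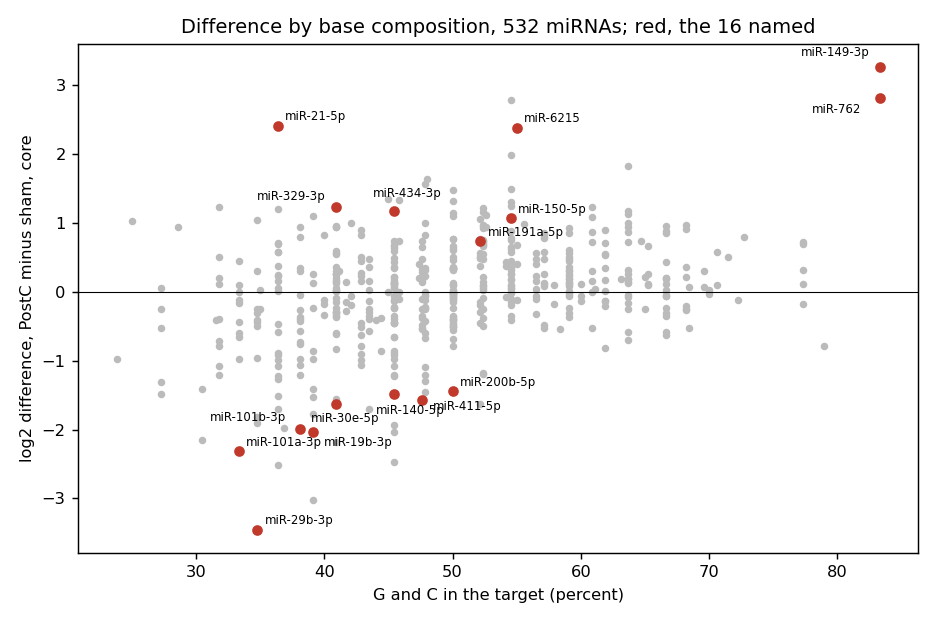
G and C content of the target in percent (x axis) against the log2 difference PostC minus sham in core (y axis) for 532 miRNAs, with the 16 named miRNAs in red. MiR-149-3p and miR-762 stand alone at 83.3%, and 67 of the 99 miRNAs with at most 40% lie below 0.

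In the peri region of the same rats, few miRNAs separated PostC from sham. There 0 miRNAs (0%) had an adjusted p under 0.05 in limma and 14 (2.63%) had an unadjusted p under 0.05, 11 higher (2.07%) and 3 lower (0.564%). In peri, miR-149-3p had a log2 difference of 0.70 and miR-762 one of 1.03, and the value was -0.48 for miR-21-5p, -0.23 for miR-6215 and 0.06 for miR-19b-3p. The difference between the core and the peri change, tested on core minus peri of each rat, gave 0 miRNAs (0%) with an adjusted p under 0.05 and 56 (10.5%) with an unadjusted p under 0.05, 23 higher (4.32%) and 33 lower (6.2%) in core. Without PostC rat 2 there were 10 with an adjusted p under 0.05, and without PostC rat 3 there were 2.

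The largest of these region differences by p were in miR-338-3p, miR-411-5p and miR-135b-5p on the lower side. The core minus peri change was -3.81 (SE 0.82) for miR-338-3p, -1.64 (SE 0.38) for miR-411-5p and -2.05 (SE 0.54) for miR-135b-5p, each with a limma adjusted p of 0.309. In miR-135b-5p, as in miR-338-3p, sham rat 2 (10.56 in core) lay far above the other sham rats (7.85 and 7.54). On the higher side were miR-485-3p of the Dlk1-Dio3 region with 1.27 (SE 0.35), miR-297 with 1.31 (SE 0.40) and miR-181a-2-3p with 1.505 (SE 0.46), with the same limma adjusted p of 0.309. For miR-21-5p the core minus peri change was 2.90 (SE 0.91, limma adjusted p = 0.309).

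**Figure D5:**
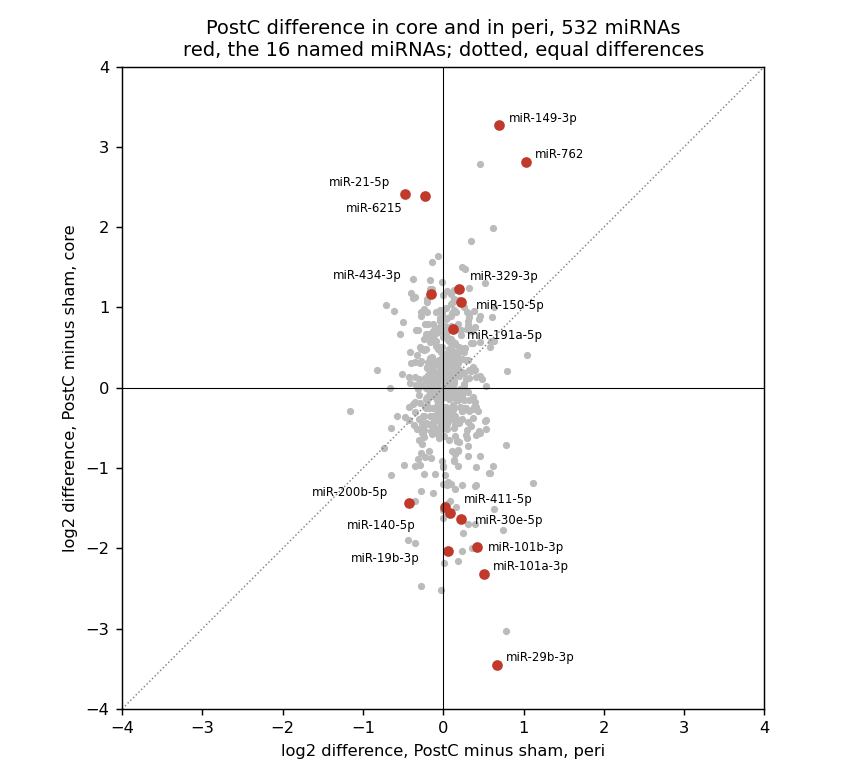
Log2 difference PostC minus sham in peri (x axis) and in core (y axis) for 532 miRNAs from the same rats, with the 16 named miRNAs in red and equal differences on the dotted line. The core differences spread more widely than the peri ones, and miR-21-5p has 2.42 in core and -0.48 in peri.

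The tMCAO core arrays place the PostC values beside the occlusion. PostC minus sham and tMCAO minus sham share the sham arrays, so their values are only set side by side. The log2 difference of miR-149-3p from sham was 3.27 in PostC and 3.33 in tMCAO, that of miR-762 was 2.81 and 3.05, and that of miR-6215 was 2.39 and 2.94. For miR-30e-5p it was -1.64 and -1.87, for miR-29b-3p -3.46 and -3.89, and for miR-200b-5p -1.44 and -1.23. MiR-21-5p had 2.42 in PostC and 1.38 in tMCAO, and miR-19b-3p had -2.03 and -0.72. List medians in PostC and tMCAO were 0.97 and 1.37 for leukocytes and microglia, and -0.48 and -0.81 for neuron-enriched miRNAs. They were -1.10 and -0.96 for oligodendrocytes, -1.70 and -2.63 for miR-29, and -1.57 and -2.22 for miR-181. The hypoxia list had 0.92 and -0.52, red blood cell -0.11 and 0.95, and striated muscle 0.50 and -0.18. In tMCAO against sham 18 miRNAs (3.38%) had an adjusted p under 0.05 in limma, 9 higher (1.69%) and 9 lower (1.69%), among them miR-149-3p, miR-762 and miR-6215 (adjusted p = 0.0292 each).

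Tested directly, PostC and tMCAO differed in 12 miRNAs (2.26%) at an adjusted p under 0.05, 11 higher (2.07%) and 1 lower (0.188%) in PostC. MiR-210-5p was one of them, with 13.14, 12.01 and 12.47 in PostC and 9.68, 9.87 and 9.71 in tMCAO, a log2 difference of 2.79 (SE 0.34, limma adjusted p = 0.00244). The sham values, 11.39 to 11.45, lay between the groups with no overlap. Of the differences from sham, that of tMCAO (-1.66, limma adjusted p = 0.0318) passed the threshold and that of PostC (1.13, limma adjusted p = 0.131) did not. MiR-568 read 13.27, 12.08 and 12.72 in PostC, 11.59, 11.97 and 11.44 in sham and 8.69, 6.85 and 8.94 in tMCAO (PostC minus tMCAO 4.53, SE 0.56, limma adjusted p = 0.00244). MiR-182, of the cluster known from sensory cells, read 9.83, 8.49 and 10.22 in PostC and 7.16, 7.24 and 6.73 in tMCAO (2.47, SE 0.49, limma adjusted p = 0.0324). These tMCAO values were as low as miR-155-5p values called not well above background, so the size of the difference is uncertain. The other 8 higher in PostC were miR-3591, miR-320-5p, miR-93-3p, miR-3574, miR-187-5p, miR-191b, miR-196c-3p and miR-3064-3p, and the lower one was miR-664-2-5p. The count was 4 without PostC rat 3 and 3 without tMCAO rat 1 or without tMCAO rat 2. Without tMCAO rat 3 it was 11, and the split turned to 4 higher and 7 lower in PostC. Among the 16 miRNAs named by rank of p against sham, none was among these 12, and the PostC minus tMCAO difference ran from -1.31 for miR-19b-3p (SE 0.37, limma adjusted p = 0.109) to 1.04 for miR-21-5p (SE 0.52, limma adjusted p = 0.472).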

How the data were processed

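MiRNAs were measured on single-colour (Cy5) arrays. Per the labels, total RNA was extracted with a miRNeasy kit, while the methods name Trizol, and was tailed, tagged and hybridized to µParaflo chips. The authors deposited the raw median pixel intensity of 3968 spots per array, and a second, linear table that they had corrected for background and normalized by locally weighted regression.

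From the spots, background was corrected with normexp (offset 50), cyclic loess was applied to the log2 values of the miRNA spots of all 18 arrays, and each probe was averaged over its 4 spots. Control spots were left out, and each difference is relative to the other miRNAs. A miRNA was detected where its median spot exceeded the median of 612 empty spots by 3 scaled median absolute deviations, and 532 of 761 detected on at least 3 arrays were tested. Depth has no meaning for arrays, and the number of arrays limits the precision.

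The 9 core arrays, each a rat and so a replicate, entered 1 limma fit (version 3.58.1, R 4.3.3, lmFit and eBayes with trend), with p-values adjusted by Benjamini-Hochberg at 0.05. The fit was tested on simulated data. The miRNAs named are the 8 higher and 8 lower with the smallest p among those detected on all 3 arrays of a group, the extremes of each list among miRNAs detected on all 6 arrays, and the 3 region differences in each direction with the smallest p. Of the lower ones, miR-19b-3p, miR-200b-5p, miR-140-5p, miR-101a-3p, miR-101b-3p and miR-29b-3p met the rule through sham alone, with detection on 1 or 2 PostC arrays. A filter for detection on all 6 arrays leaves them out. Other miRNAs were named after their values were seen. Members, lists and rules were chosen with earlier results of these data known. The alternatives were 2 other background corrections, other normalizations, the deposited intensities (floor 50), other filters and variance models, fewer arrays, a replicate block, a GC correction, the methods' t-test and leaving out each rat. Loess over all spots and leaving out PostC rat 3 with sham rat 2 were added after seeing the data. No genome was used here. Figures were drawn with matplotlib 3.10.9 in Python 3.11.15.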

Additional observations from a re-analysis of the deposited data

How the results depend on the processing

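Against 0 miRNAs with an adjusted p under 0.05 between PostC and sham in core, the alternatives gave 2 with plain background subtraction, 6 with quantile normalization, 1 in the deposited intensities, 5 among the miRNAs detected on all 6 arrays, 4 among those detected on at least 3 of them, 1 with no variance trend, 6 with array weights and 2 without PostC rat 3 and sham rat 2 together. Leaving out single rats gave 0 to 8 for this comparison, 0 to 10 for the difference between core and peri, and 3 to 11 for PostC against tMCAO, against 12 with all rats. Without tMCAO rat 3 these 11 were 4 higher and 7 lower in PostC, against 11 higher and 1 lower. For PostC against tMCAO the deposited intensities gave 19. The cause of these differences was not tested. Of the 24 alternatives in the core comparison, miR-149-3p had an adjusted p under 0.05 in 8 (adjusted p from 0.0151 to 0.438 over all), miR-762 in 5, and miR-19b-3p, miR-200b-5p and miR-6215 in 4 each. Median scaling moved the median difference of all tested miRNAs from 0.06 to -0.05 and the split at an unadjusted p under 0.05 from 44 higher and 46 lower to 19 and 51, and plain subtraction gave 41 and 25.

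Whether the replicate numbers pair rats across groups is not known, and 3 correlations cannot decide it. The deviations of same-numbered PostC and sham core arrays had correlations of 0.44, -0.28 and -0.41, and only PostC rat 1 correlated best with its own number. With the number as a replicate block there were 0 calls for PostC against sham in core and 0 for the difference between core and peri, and 3 for PostC against tMCAO.

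Of 44 named miRNAs, 38 kept their sign in each alternative that could be run for them. The filter for detection on all 6 arrays left out 8 of the 44, miR-19b-3p, miR-200b-5p, miR-140-5p, miR-101a-3p, miR-101b-3p, miR-29b-3p, miR-338-3p and miR-135b-5p. The sign turned for let-7a-5p in the deposited intensities (-0.30), with array weights (-0.070) and without PostC rat 3 and sham rat 2 (-0.11), for miR-219a-2-3p with array weights (0.11), for miR-338-5p with median scaling (-0.037), and with plain subtraction for miR-181a-5p (-0.090) and miR-34a-5p (0.20). With single rats left out the difference ran from -0.019 to 0.78 for miR-134-5p, from -0.16 to 0.72 for let-7a-5p, from -0.47 to 0.14 for miR-219a-2-3p, from -0.040 to 0.44 for miR-338-5p and from -0.60 to 0.44 for miR-34a-5p. A detection limit from the dimmest 25% of spots left a PostC minus sham difference of -3.67 miRNAs detected (n = 3 each, exact permutation p = 1, two-sided), against -94. Signal near background limits the lower miRNAs, of which 8 of 46 were detected on all 6 arrays, against 183 of all 532, a filter that a lower level in PostC can itself fail.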
